A study of Mus musculus with 6 samples.

Results

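Phosphatidylserine flippases and scramblases decide which face of the plasma membrane carries phosphatidylserine. The set described here holds 8 mouse genes: the P4-ATPases Atp8a1, Atp11a and Atp11b, their shared subunit Tmem30a, and the scramblase genes Xkr8, Ano6, Plscr1 and Plscr3. Members were the rows of the deposited expression table with these gene symbols, 8 of 55291 genes, and all 8 were among the 12603 genes that were abundant enough to test. The libraries were made from poly(A) RNA of bone marrow-derived macrophages (BMDM), which are phagocytes grown in culture from marrow precursors. There were 3 libraries of untreated BMDM and 3 of BMDM pretreated with apoptotic cells (AC). The labels name no genotype, other agent or mouse strain, and they leave the source, dose and timing of the AC unstated. The labels do not say whether replicates are separate cultures or animals, so the tests measure the spread between these libraries only, and that spread may be technical.

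Living cells keep phosphatidylserine on the inner leaflet. P4-ATPases, a family of ATP-driven flippases, move it inward, and most of them need a CDC50 subunit such as the Tmem30a protein to leave the endoplasmic reticulum and work. Scramblases let lipids pass in both directions. Xkr8 is opened by caspase cleavage during apoptosis, and the Ano6 protein (TMEM16F) is opened by calcium, so that phosphatidylserine appears outside and serves as the signal by which macrophages recognise and engulf a dying cell. The phospholipid scramblase family, to which Plscr1 and Plscr3 belong, was named for this activity, but Plscr1 is better known as an interferon-induced gene and Plscr3 for its protein at mitochondria.

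Recovered depth was 19330350 to 32649090 reads per library. All 8 macrophage markers were present, with a summed level of 14142 to 16774 TPM in untreated cells and 13449 to 15687 TPM in AC pretreated libraries; TPM is the share of all transcripts after scaling by gene length, with each library summing to 1000000. Of 8 T cell and thymocyte markers, 7 were below 1 TPM in every library, with Cd3d listed at 0, and their sum was 0.298 to 1.07 TPM in untreated cells and 1.06 to 1.96 TPM in AC pretreated libraries. All 4 B cell and all 5 fibroblast markers were below 1 TPM in every library. Platelet and megakaryocyte markers summed to 249.7 to 304 TPM without and 302 to 391 TPM with AC, neutrophil markers to 23.4 to 54.8 and 25.0 to 42.4 TPM, and erythroid markers to 0.0652 to 3.47 and 0.357 to 17.5 TPM. Epithelial markers summed to 0.650 to 1.71 TPM without and 2.10 to 5.09 TPM with AC, ranges that do not overlap. Gp1bb and Epcam, defining platelet and epithelial genes, were at 0 in all libraries. No marker that was tested passed limma, but neither did any of all 12603 genes tested. The part of these other cell types in the members' values was not tested. Transcripts of 14 placental genes summed to 19.7 and 37.5 TPM in untreated replicates 1 and 2, to 34.2 and 167 TPM in AC replicates 1 and 2, and to 0 TPM in replicate 3 of both groups. A source of placental transcripts is not named in the labels, and values of the members are given below within these 4 libraries and within the other 2. In bulk RNA, fewer cells with a transcript and less of it per cell cannot be told apart.

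The 3 flippase genes encode related pumps. The stretch of coding sequence around the aspartate that is phosphorylated in each pump cycle is shown for them because it is the best conserved part of the catalytic core, and the capitals mark the 5 codons that begin with that aspartate. Each line is the coding strand of the longest reading frame among GENCODE M21 transcripts of the gene, and the capitals begin at coding bases 1225, 1240 and 1219 of Atp8a1, Atp11a and Atp11b.
Atp8a1: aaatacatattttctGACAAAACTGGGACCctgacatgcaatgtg
Atp11a: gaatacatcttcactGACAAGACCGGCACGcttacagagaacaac
Atp11b: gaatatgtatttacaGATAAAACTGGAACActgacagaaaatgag
Over the whole aligned coding sequence, Atp11a and Atp11b shared 67.0% of their bases, Atp8a1 and Atp11a 63.9%, and Atp8a1 and Atp11b 62.4%. None of the 3 shared a run of 50 exon bases with another P4-ATPase gene, so a read of that length or longer can be assigned to 1 family member. Antisense genes overlap 1.43% of the exon bases of Atp8a1, 3.33% of those of Atp11a and 2.74% of those of Ano6.

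Atp8a1 encodes a flippase with phosphatidylserine as its main substrate. It lies on chr5:67618140-67847434 (mm10, minus strand). Its level was 34.9, 32.2 and 30.3 TPM in untreated replicates 1 to 3, and 19.4, 29.0 and 37.6 TPM in AC replicates 1 to 3. The AC libraries lay on both sides of the untreated ones: AC replicate 1 was the lowest of all 6 and AC replicate 3 the highest. The means were 32.5 ± 2.34 TPM (SD, n = 3) and 28.7 ± 9.09 TPM (SD, n = 3). On the log2(TPM + 1) scale used for all differences, AC pretreated minus untreated was -0.22 ± 0.23 (SE; 95% interval -0.75 to 0.31; limma adjusted p = 1.0), the lowest value among the 8 genes. The interval allows levels from 0.597-fold to 1.24-fold of those in untreated cells.

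Atp11a encodes a plasma membrane flippase and lies on chr8:12757014-12868728 (plus strand). It stood at 18.8, 13.5 and 12.0 TPM in the untreated and at 8.62, 14.5 and 20.1 TPM in the AC pretreated libraries, with group means of 14.8 ± 3.57 and 14.4 ± 5.73 TPM (SD, n = 3). Here too AC replicate 1 was lowest and AC replicate 3 highest, and the groups overlapped. The difference was -0.08 ± 0.30 (95% interval -0.77 to 0.60; limma adjusted p = 1.0). Over the 6 libraries, Atp11a had the widest spread of the set, an SD of 0.41 log2 units. Atp11b, a flippase of endosomes and the recycling route, lies on chr3:35754106-35856276 (plus strand). It was at 18.3, 16.2 and 18.9 TPM without and at 10.2, 18.5 and 20.3 TPM with AC, with means of 17.8 ± 1.38 and 16.3 ± 5.35 TPM. Its difference was -0.17 ± 0.25 (95% interval -0.74 to 0.40; limma adjusted p = 1.0). Only AC replicate 1 stood below the untreated range, and AC replicate 3 stood above it.

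Tmem30a was the most abundant gene of the set and lies on chr9:79768943-79793507 (minus strand). The untreated libraries held 76.2, 80.4 and 85.5 TPM, and the AC pretreated ones 61.4, 103 and 80.0 TPM. AC replicate 1 was again the lowest library, but AC replicate 2 was the highest, unlike for the 3 pumps. The GC content of Tmem30a is 39.2%. Over all tested genes under 40% GC, AC replicate 2 was also the highest library, with a median of 0.23 log2 units above the gene mean. Atp11b, however, has a GC content of 39.6% and was highest in AC replicate 3. The part of GC content and exon length in this contrast was not tested. The means were 80.7 ± 4.67 and 81.6 ± 20.96 TPM (SD, n = 3), and the difference was -0.01 ± 0.19 (95% interval -0.46 to 0.43; limma adjusted p = 1.0). The other CDC50 genes, Tmem30b and Tmem30c, did not pass 0.05 TPM in any library, so Tmem30a supplied nearly all CDC50 transcripts in both groups.

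**Figure D1:**
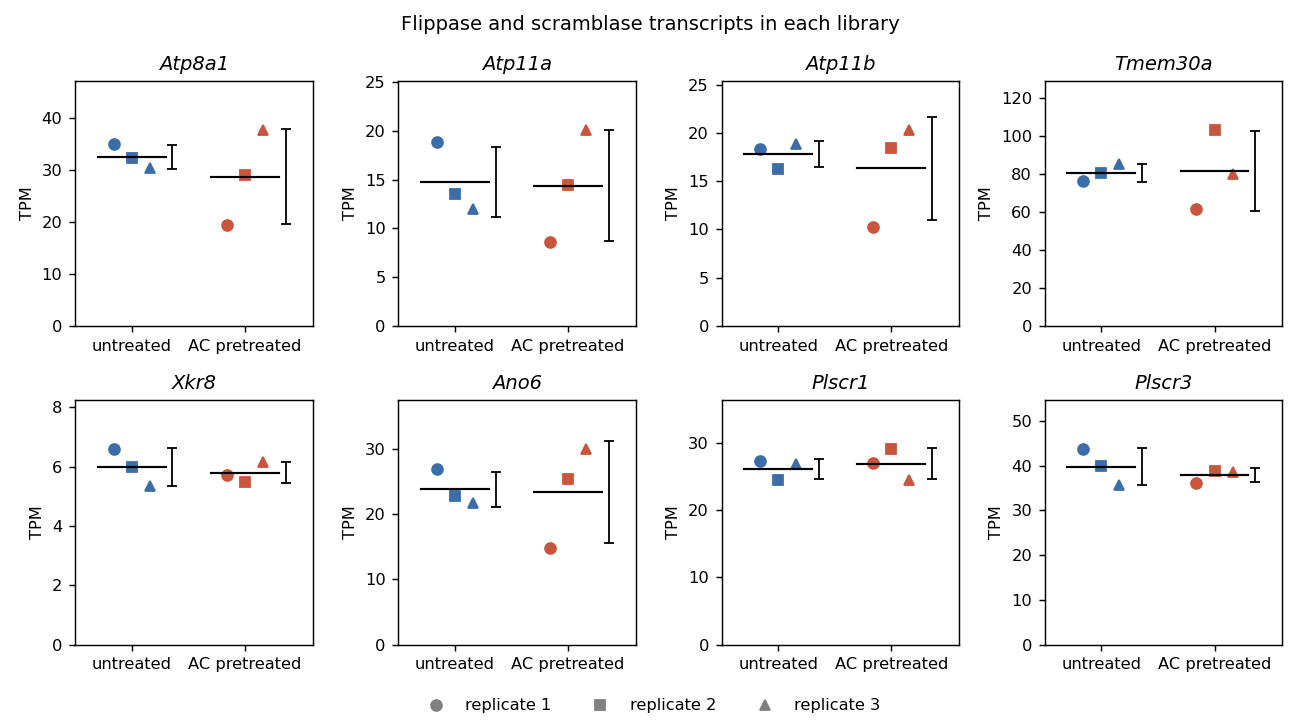
TPM (vertical axes, each starting at 0) of the 8 genes in the 3 untreated (blue) and 3 AC pretreated (red) libraries; each point is 1 library, its shape gives the replicate number, the horizontal line is the group mean and the bar beside it is ± 1 SD. For Atp8a1, Atp11a, Atp11b and Ano6 the AC libraries run from below to above the untreated ones, while Xkr8, Plscr1 and Plscr3 stay within a narrow range.

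Xkr8, the caspase-activated scramblase, was the least abundant of the set and lies on chr4:132724897-132732546 (minus strand). It was at 6.61, 5.99 and 5.34 TPM in untreated cells and 5.73, 5.47 and 6.17 TPM in AC pretreated libraries, from 147 to 280 recovered reads. All 3 AC libraries fell inside the untreated range. The means were 5.98 ± 0.637 and 5.79 ± 0.354 TPM, and the difference was -0.04 ± 0.18 (95% interval -0.45 to 0.38; limma adjusted p = 1.0). The proteins of Bsg and Nptn are chaperones that bring Xkr8 to the cell surface, and their transcripts were much more abundant, with Nptn at 266 ± 22.8 and 249 ± 55.1 TPM and Bsg at 460 ± 51.6 and 457 ± 78.9 TPM in untreated cells and AC pretreated cells (SD, n = 3).

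Ano6, the calcium-activated scramblase, lies on chr15:95790843-95974751 (plus strand). Its levels were 26.8, 22.8 and 21.7 TPM in untreated cells and 14.8, 25.4 and 30.0 TPM in AC pretreated libraries. It followed the pumps rather than the other scramblase genes: AC replicate 1 was lowest, AC replicate 3 highest, and the group means nearly met, at 23.8 ± 2.73 and 23.4 ± 7.81 TPM. The difference was -0.07 ± 0.25 (95% interval -0.65 to 0.51; limma adjusted p = 1.0). Of the other anoctamins, Ano8 and Ano10 passed the filter on low values and 7 were below 1 TPM in every library.

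Plscr1, the interferon-induced member of the phospholipid scramblase family, lies on chr9:92249750-92272278 (plus strand). It was at 27.2, 24.4 and 26.8 TPM without and 27.0, 29.1 and 24.5 TPM with AC. The groups overlapped, and AC replicate 3, the highest library for the pumps, was lowest within its group. Its means were 26.1 ± 1.49 TPM without and 26.9 ± 2.31 TPM with AC, a difference of 0.04 ± 0.14 log2 units (95% interval -0.29 to 0.37; limma adjusted p = 1.0). Plscr1 was the only gene of the set with a higher mean of log2(TPM + 1) after AC pretreatment, while with median-of-ratios scaling 4 of the 8 were higher. Of its runs of 50 exon bases, 12.3% also occur in the processed pseudogene Gm5530, which did not pass 0.562 TPM in any library. Plscr3, which lies on chr11:69846376-69852058 (plus strand), was at 43.9, 39.9 and 35.8 TPM in untreated cells and 36.2, 38.9 and 38.6 TPM in AC pretreated libraries. All 3 AC values lay inside the untreated range. The means were 39.8 ± 4.06 and 37.9 ± 1.496 TPM and the difference -0.07 ± 0.14 (95% interval -0.39 to 0.26; limma adjusted p = 1.0). Of the exon bases of Plscr3, 891 (28.3%) overlap the antisense gene Tnk1, and the strand setting of the counting is not given; Tnk1 itself did not pass 0.0418 TPM.

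Of the 8 genes, 0 passed an adjusted p of 0.05 in limma, as did 0 of all 12603 genes tested (0.0%), and 0 of the 8 had an unadjusted p under 0.05, against 1.3% of all genes. The groups overlapped for all 8, while 4.42% of all genes had groups that did not overlap. A lower mean of log2(TPM + 1) after AC pretreatment was found for 7 of the 8, Tmem30a among them although its mean TPM was higher, beside 70.6% of all genes; with median-of-ratios scaling, which moves the median difference of all genes from -0.07 to -0.00, it was 4 of the 8 beside 51.2%. The median difference of the 8 was -0.07, as it was over all genes. For 8 of 8 genes the sign of the difference was not the same in the 4 libraries with placental transcripts as in the other 2, and the same held for 27 of the 32 tested pathway genes. The median of all genes also changed sign, from -0.13 to 0.05. How many of all tested genes changed sign was not counted, so these counts are not shown to be particular to the set. The split also parts AC replicate 1, which has placental transcripts, from AC replicate 3, which has none. Atp8a1 was at -0.48 in the 4 libraries with placental transcripts and 0.30 in the other 2, Atp11a at -0.47 and 0.69, and Ano6 at -0.33 and 0.45. With 1 library per group, the latter values have no test.

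The order of mean levels was the same in both groups: Tmem30a, Plscr3, Atp8a1, Plscr1, Ano6, Atp11b, Atp11a and Xkr8, from high to low. TPM is scaled by length, but levels within a library still moved with exon length, as shown further on, so the order of long and short genes can differ between libraries. In AC replicate 1 Plscr1, at 27.0 TPM, stood above Atp8a1, at 19.4 TPM. Tmem30a exceeded 85.4% of all tested genes and Xkr8 only 29.4%, with the median gene at 14.9 TPM, so 6 of the 8 stood above the median gene. In untreated cells the ranges of neighbours overlapped only for Plscr1 with Ano6 and for Atp11b with Atp11a. In AC pretreated cells they overlapped for all neighbours except Tmem30a with Plscr3 and Atp11a with Xkr8.

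Atp8a1 gave 49.98 ± 1.82% of the summed TPM of Atp8a1, Atp11a and Atp11b in untreated and 48.6 ± 1.97% in AC pretreated libraries (SD, n = 3). Atp11a gave 22.5 ± 3.28% and 23.9 ± 1.68%, and Atp11b 27.5 ± 2.92% and 27.5 ± 2.0%. The sum itself was 65.04 ± 6.07 and 59.4 ± 19.96 TPM, from 38.3 to 78.0 TPM within the AC group. The 3 pumps were thus low together in AC replicate 1 and high together in AC replicate 3. Tmem30a did not keep pace with them. Its TPM over their sum was 1.06, 1.298 and 1.398 in untreated and 1.603, 1.67 and 1.03 in AC pretreated libraries, ranges that overlap. These ratios are not adjusted for the trends of the libraries with exon length and GC content. Among the scramblase genes, Plscr3 over Plscr1 was 1.53 ± 0.166 and 1.42 ± 0.136. The share of Ano6 in the summed TPM of the 4 scramblase genes was 24.8 ± 0.795% in untreated libraries and 24.5 ± 6.35% in AC pretreated ones, with a wider spread in the latter.

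**Figure D2:**
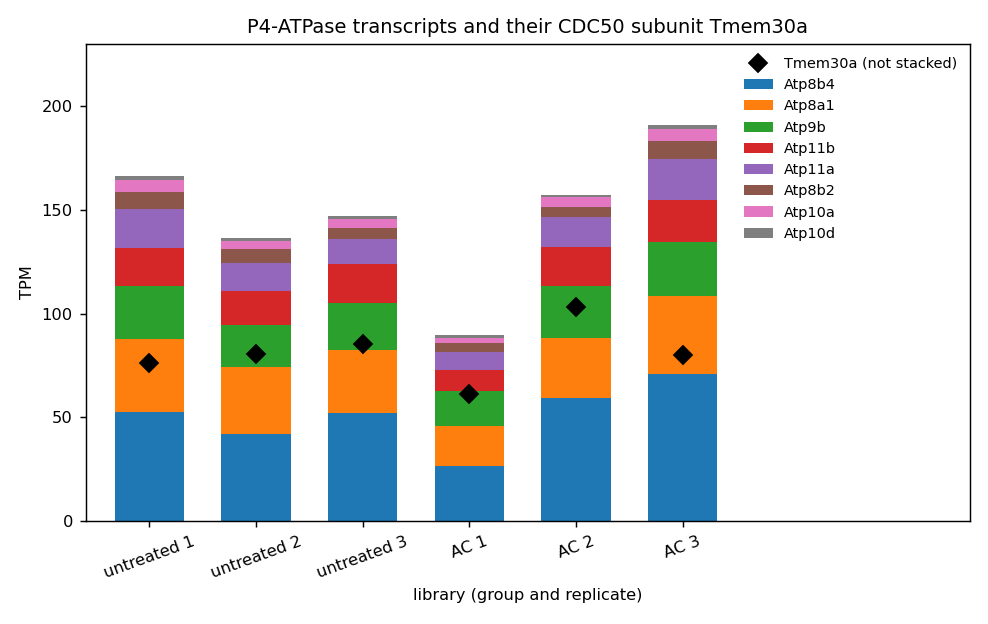
Stacked TPM of 8 tested P4-ATPase genes in each of the 6 libraries (bars from 0), with Tmem30a as a black diamond on the same axis. The stack is lowest in AC replicate 1 and highest in AC replicate 3, and Atp8b4 and Atp8a1 are its 2 most abundant genes in every library; the diamond is highest in AC replicate 2.

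For Atp8a1, Atp11a, Atp11b, Tmem30a and Ano6, the lowest and the highest library both lay within the AC group. For Xkr8 and Plscr3 both lay within the untreated group, and for Plscr1 they lay in different groups. From AC replicate 1 to AC replicate 3, log2(TPM + 1) differed by 0.92 for Atp8a1, 1.13 for Atp11a, 0.92 for Atp11b and 0.97 for Ano6. For Tmem30a the gap was 0.38, for Xkr8 0.09, for Plscr3 0.09 and for Plscr1 -0.13 (0.22 for the median gene). The 4 genes with wide gaps were also the 4 with the longest transcripts. Merged exon length was 14278 bases for Atp8a1, 12269 for Ano6, 11150 for Atp11a and 9176 for Atp11b, and 5646, 4312, 3148 and 2462 bases for Tmem30a, Xkr8, Plscr3 and Plscr1. Over all genes the median gap moved with exon length in the same way. It was -0.22 under 2 kb, 0.02 from 2 to 4 kb, 0.33 from 4 to 6 kb, 0.49 from 6 to 8 kb and 0.72 from 8 kb upward. With median-of-ratios scaling the median gap of all genes was -0.00, and the gaps of the members were 0.67 for Atp8a1, 0.90 for Atp11a, 0.68 for Atp11b, 0.73 for Ano6, 0.12 for Tmem30a, -0.13 for Xkr8, -0.16 for Plscr3 and -0.38 for Plscr1. This scaling moves the gap of every gene down by a similar amount.

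**Figure D3:**
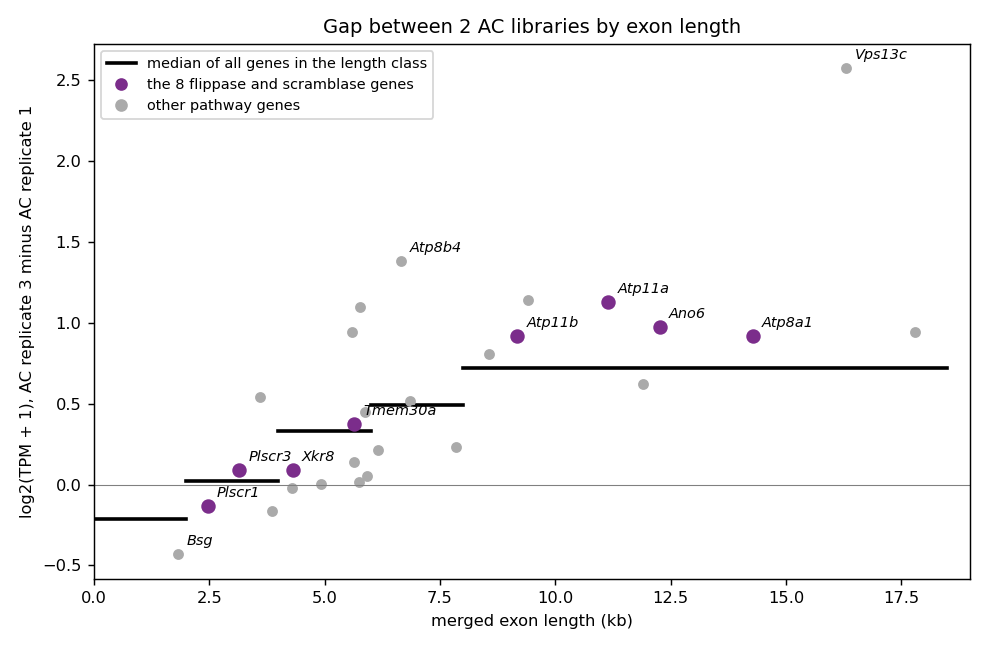
Difference in log2(TPM + 1) between AC replicates 3 and 1 (vertical axis) by merged exon length in kb (horizontal axis) for the 8 genes (purple) and 20 other tested pathway genes (gray); black lines are medians of all tested genes by length class. Atp8a1, Ano6, Atp11a and Atp11b sit above the line of their class, and Plscr1, Plscr3 and Xkr8 lie near 0; with median-of-ratios scaling these 3 lie below 0.

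The same counts can be read against all genes. AC replicate 1 was the lowest of the 6 libraries for 5 of the 8 genes, beside 47.0% of all tested genes, 86.7% of the 1817 genes of at least 8 kb and 40.4% of the shorter ones. AC replicate 3 was the highest library for 4 of the 8, beside 24.9% of all genes. Both held at once for 4 of the 8, beside 19.4% of all genes and 54.1% of those of at least 8 kb. With median-of-ratios scaling AC replicate 1 was again lowest for 5 of the 8, beside 29.2% of all genes and 67.4% of those of at least 8 kb. Both again held at once for 4 of the 8, beside 15.8% of all genes and 49.5% of those of at least 8 kb. The spread was larger in the AC pretreated than in the untreated group for 6 of the 8, beside 73.3% of all genes, and the median SD of the set was 0.12 log2 units without and 0.42 with AC.

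The trend of each library with exon length and GC content was also taken out of every gene, an alternative chosen after the data were seen. The gap then fell to 0.08 for Atp8a1, 0.46 for Atp11a, 0.28 for Atp11b and 0.23 for Ano6. It was -0.04 for Tmem30a, -0.15 for Xkr8, 0.06 for Plscr3 and -0.14 for Plscr1. The SD in the AC group became smaller for 6 of the 8, beside 68.7% of all genes. It became larger for Xkr8 (0.075 to 0.116) and Plscr3 (0.056 to 0.065). The SD of Atp8a1 in the AC group went from 0.46 to 0.07, equal to its SD of 0.07 in the untreated group after the same step. The median SD of the 8 genes in the AC group went from 0.42 to 0.12, and that of all genes from 0.29 to 0.20. The difference between the groups for Atp8a1 was then -0.17 ± 0.09 (SE; limma adjusted p = 1.0), larger than either SD, and it did not pass the test. Of the 3 pumps Atp11a kept the widest gap. What gives the AC libraries their trend with length was not tested.

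The pathway list around the set held 55 genes, of which 32 were tested and 22 were below 1 TPM in every library. Of the 32, 0 passed the limma test in either direction. A lower mean was found for 26 and a higher mean for 6, beside 70.6% of all tested genes with a lower mean. The median difference was -0.05, and -0.07 over all genes. With median-of-ratios scaling 12 had a lower and 20 a higher mean, beside 51.2% of all genes with a lower mean. The differences ran from -0.22 for Atp8a1 to 0.18 for Ano8. Ano8, an anoctamin of endoplasmic reticulum contacts, was at 14.3, 11.3 and 7.98 TPM in untreated cells and 10.7, 11.4 and 15.8 TPM in AC pretreated libraries, and the groups overlapped. All 10 tested P4-ATPase and CDC50 genes had a lower mean, beside 70.6% of all genes. With median-of-ratios scaling it was 5 of the 10, beside 51.2%.

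**Figure D4:**
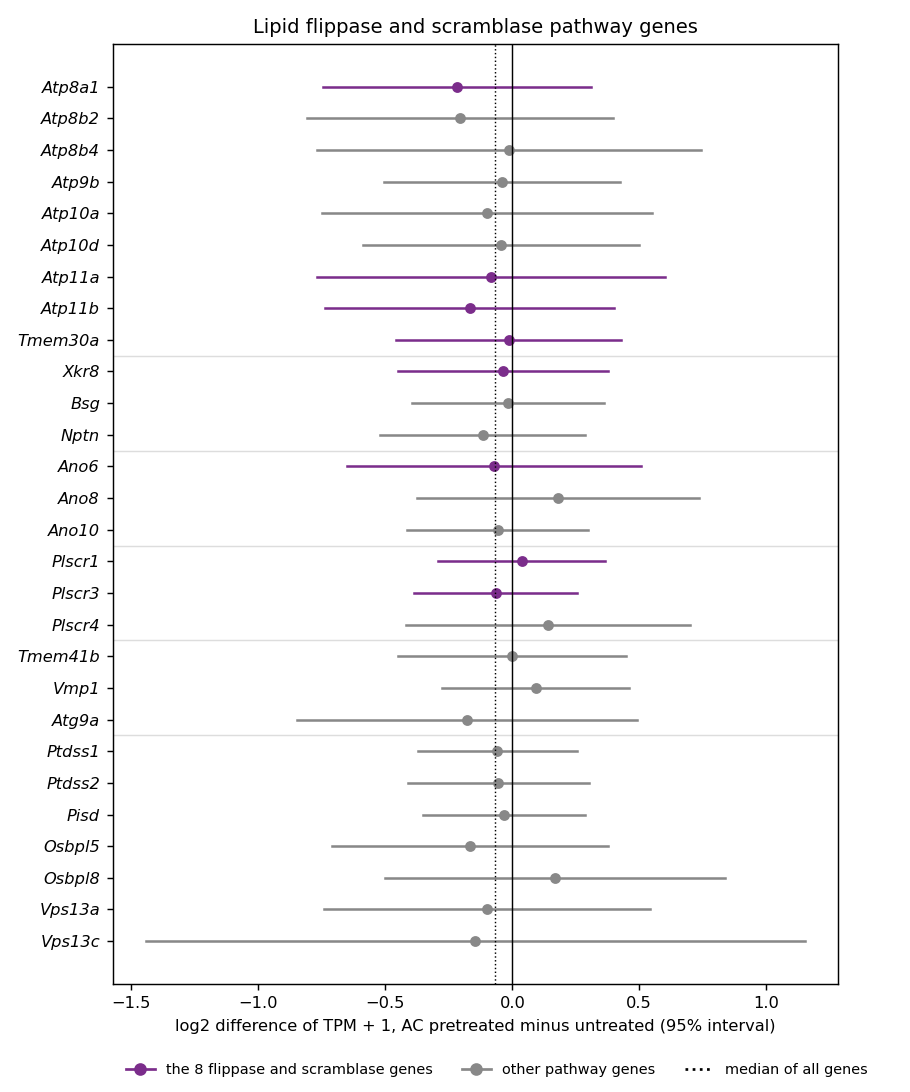
Log2 difference of TPM + 1, AC pretreated minus untreated (horizontal axis), for 28 of the 32 tested genes of the pathway list, with 95% intervals from limma; the 8 members are purple, others gray, and the dotted line is the median of all genes. Every interval spans 0, and the widest is that of Vps13c.

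Among the other P4-ATPases, Atp8b4 was the most abundant, at 52.7, 42.1 and 52.1 TPM in untreated cells and 26.5, 59.4 and 70.8 TPM in AC pretreated libraries. Its gap between AC replicates 1 and 3, 1.39 log2 units, was wider than that of any of the 8 members although its exon length is 6660 bases, and 0.88 was left after the length and GC trends were removed. Atp9b, a family member that does not need a CDC50 subunit, averaged 22.9 ± 2.58 and 22.5 ± 5.20 TPM. Atp8b2, Atp10a and Atp10d were lower, with untreated means of 6.95, 4.45 and 1.67 TPM and AC pretreated means of 6.03, 4.23 and 1.59 TPM. Atp8a1, Atp11a and Atp11b together made up 39.9 ± 1.63% of P4-ATPase transcripts in untreated and 37.4 ± 1.54% in AC pretreated libraries.

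Genes of phosphatidylserine synthesis varied little. Ptdss1, which makes the lipid from phosphatidylcholine, averaged 52.6 ± 4.17 and 50.4 ± 3.78 TPM, and Ptdss2, which makes it from phosphatidylethanolamine, 12.8 ± 0.900 and 12.3 ± 0.718 TPM. Pisd, which decarboxylates it in mitochondria, averaged 48.2 ± 5.41 and 46.9 ± 1.09 TPM. Lipid transfer genes varied more. Osbpl8, whose protein carries phosphatidylserine from the endoplasmic reticulum to the plasma membrane, was at 170, 172 and 229 TPM in untreated cells and 129, 259 and 285 TPM in AC pretreated libraries, with a difference of 0.17 ± 0.29 (limma adjusted p = 1.0), which was 0.52 without AC replicate 1 and -0.05 without AC replicate 3. Vps13c, a bridge-like lipid transporter, was at 10.1, 5.79 and 6.11 TPM in untreated cells and 2.08, 5.97 and 17.4 TPM in AC pretreated libraries. Its gap of 2.58 between AC replicates 1 and 3 exceeded that of 99.2% of tested genes, and 1.68 was left after trend removal. Vps13a, a related transporter that works with the XK protein, averaged 2.87 ± 0.347 and 2.74 ± 1.25 TPM, and Osbpl5 1.91 ± 0.440 and 1.58 ± 0.206 TPM.

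The remaining scramblases gave no difference beyond their spread. Vmp1, an endoplasmic reticulum scramblase of autophagy, averaged 169 ± 21.6 and 180 ± 26.2 TPM, Tmem41b, which acts beside it, 11.5 ± 1.47 and 11.5 ± 2.18 TPM, and Atg9a, the scramblase of autophagosome seeds, 10.8 ± 2.39 and 9.79 ± 3.99 TPM. Plscr4 averaged 10.4 ± 1.54 and 11.8 ± 3.71 TPM, and Ano10 19.9 ± 2.0 and 19.1 ± 1.59 TPM.

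**Figure D5:**
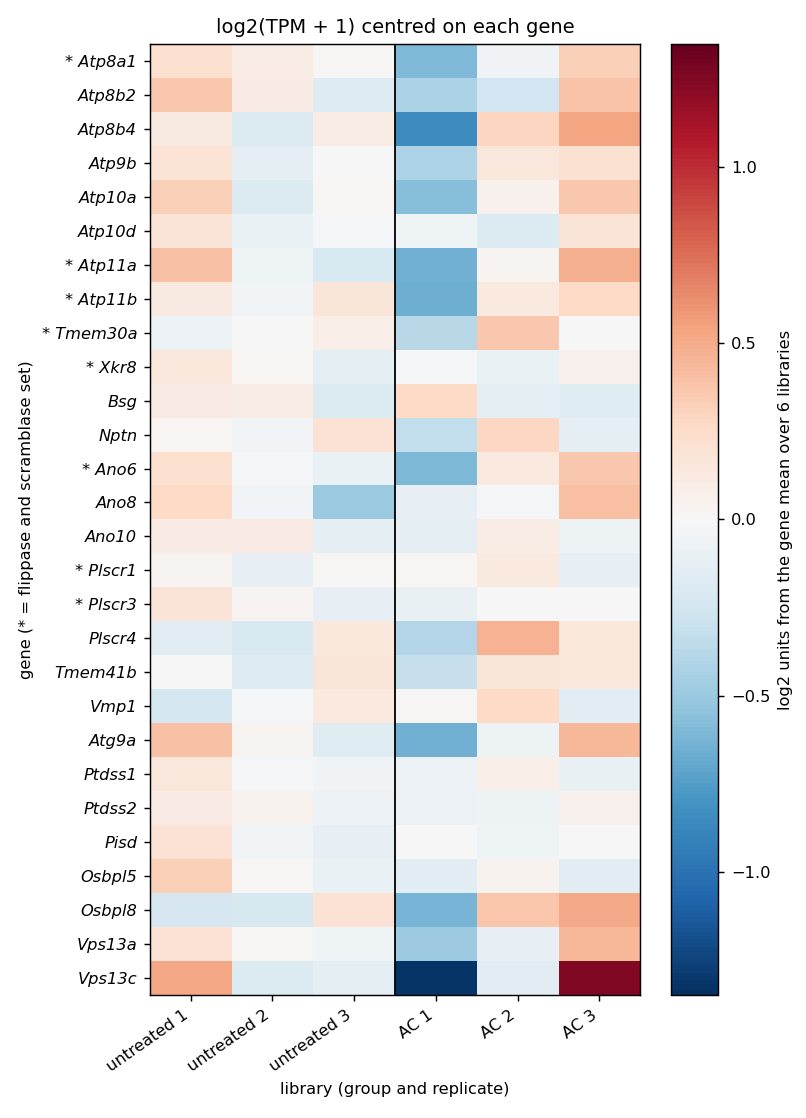
Log2(TPM + 1) of 28 of the 32 tested pathway genes in each of the 6 libraries, centred on the mean of each gene over the libraries (color scale in log2 units; members marked with an asterisk). AC replicate 1 is blue and AC replicate 3 red for most P4-ATPases, for Ano6 and for Vps13c, while Xkr8, Plscr1 and Plscr3 are pale in every library.

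Similarity of pattern was measured as the mean absolute difference of centred log2(TPM + 1) over the 6 libraries. Within the set the closest genes were Xkr8 and Plscr3 (0.044), Atp8a1 and Ano6 (0.076), and Atp11b and Ano6 (0.084), and the farthest were Atp11a and Plscr1 (0.33). For the 3 members with the widest spread, the closest genes were sought among 8717 candidates. Nearest to Ano6 were Cnot1 (0.021) and Kidins220 (0.022). Nearest to Atp11a were Adcy7 (0.040), Zzef1 (0.044) and Crybg3 (0.044), and nearest to Atp11b were Bcl6 (0.024), Uso1 (0.026) and Prkacb (0.026). A shared low AC replicate 1 and high AC replicate 3 follows from how these 8 genes were chosen; their exon lengths ran from 5847 to 17169 bases.

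Among the 8717 candidates, Atp8a1 held rank 248 by closeness to Ano6, so many genes outside the set were closer to it. The promoter windows of Atp8a1 and Ano6 are shown because these genes had the smallest distance between a pump and a scramblase within the set. Each is the 250 bases before the RefSeq transcription start (GRCm38.p6), written 5′ to 3′ on the strand of the gene, chr5:67847432-67847681 on the minus strand for Atp8a1 and chr15:95790593-95790842 on the plus strand for Ano6. Capitals mark GC boxes (GGGCGG on either strand) and, in Ano6, the PU.1 site core (GAGGAAGT on either strand).
Atp8a1: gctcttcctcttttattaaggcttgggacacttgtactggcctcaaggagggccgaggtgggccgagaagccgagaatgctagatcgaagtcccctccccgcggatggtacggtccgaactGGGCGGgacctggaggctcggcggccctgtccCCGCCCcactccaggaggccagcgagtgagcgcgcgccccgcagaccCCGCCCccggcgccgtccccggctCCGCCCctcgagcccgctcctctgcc
Ano6: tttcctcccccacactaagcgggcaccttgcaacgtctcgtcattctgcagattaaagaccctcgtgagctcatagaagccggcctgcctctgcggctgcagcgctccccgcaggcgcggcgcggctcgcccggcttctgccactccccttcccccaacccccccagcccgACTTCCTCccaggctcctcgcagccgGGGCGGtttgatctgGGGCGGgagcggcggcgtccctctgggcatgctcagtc
RefSeq windows matched 7 of the 8 members, all but Xkr8. The GC box was present in 6 of the 7, all but Tmem30a, beside 32.9% of 27025 windows of the same length. The PU.1 site core was in Ano6 alone, beside 2.44% of windows. The cAMP response element (TGACGTCA, 1.62% of windows), the E-box CACGTG (6.05%) and the interferon response core GAAANNGAA (7.16%) were in none of the 7. For Plscr1 this window lies inside the first exon of a longer GENCODE transcript. The Tmem30a window, chr9:79793431-79793680 on the minus strand, also overlaps its GENCODE gene in part. So do some windows of Plscr3, which has more than 1. These are matches of letters, and the motifs do not overlap each other in the windows shown.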

How the data were processed

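Poly(A) RNA of 6 mouse BMDM libraries was sequenced on an Illumina NovaSeq with paired reads, per the labels' protocols. STAR 2.7.10a, the Subread package with featureCounts 2.0.3, and the mm10 build come from the submitters' processing notes, which give them no role or order. Annotation release, strand setting, filters and handling of multiply mapping reads: not given in the sources used here. What the authors deposited is 1 table of a signal per gene and library, named as TPM. The deposited columns sum to between 54732 and 92831 rather than 1000000, so the unit was treated as signal, and each column was rescaled to 1000000 to give TPM. The deposited signal multiplied by merged exon length (GENCODE M21) and divided by 8.57 gave whole reads in all 6 libraries for 23432 of 23829 genes (98.3%, tolerance 0.02 reads). By chance a single value above 0 is whole in 4% of cases, and the share for all 6 libraries at once was not worked out. Values of 0 counted as whole. In all, 0 columns were left unused.

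Genes that reached 1 TPM in 3 or more libraries were fitted with limma 3.58.1 (R 4.3.3; eBayes with trend) on log2(TPM + 1), a scale that understates changes of low genes; tests were 2-sided, with Benjamini-Hochberg adjustment over 12603 genes and a threshold of 0.05. The test had been laid out for values already in TPM and was run unchanged. Counts of replicates differed by more than counting noise (chi-square per degree of freedom 19.5 to 136), so none was merged as a library deposited again; this does not show that replicates are separate cultures. The script was tested on simulated data. Alternatives were a smaller pseudocount, looser and stricter filters, median-of-ratios scaling, eBayes without trend, voom on the recovered reads, a block for the replicate number, leaving out libraries, and, chosen after seeing the data, removal of length and GC trends.

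Named genes were the 8 members, every tested gene of the pathway list, and, for the 3 members with the largest SD, the 3 genes with the smallest mean absolute difference of centred log2(TPM + 1) among those with a mean of at least 5 TPM and no predicted or clone name. A few genes that meet this rule are not reported here. Tnk1, Gm5530, Tmem30b, Tmem30c and Gm22279 fall outside this rule; their values had been seen when they were chosen. The members and lists were chosen with earlier results of these data known. Sequences came from GENCODE M21 transcripts and RefSeq promoters. Tables, alignments and figures were made in Python 3.11.15 with Biopython 1.88, matplotlib 3.10.9, pandas 2.3.3, scipy 1.17.1 and numpy 2.4.6.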

Additional observations from a re-analysis of the deposited data

How the results depend on the processing

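No setting brought a member past the limma threshold: 0 of 8 members and 0 of 32 pathway genes (28 with the filter at 5 TPM) passed under each alternative run, and the lowest adjusted p of a member over them was 0.819. Over all genes, 1 (Gm22279) passed with eBayes without trend and 0 under the others. The members' unadjusted directions were not stable. With median-of-ratios scaling Tmem30a was at 0.0581, Xkr8 at 0.0264 and Plscr3 at 0.00704, and with voom on recovered reads they were at 0.0587, 0.0282 and 0.00612. With length and GC trends removed, Atp11a was at 0.00713, Tmem30a at 0.0136, Xkr8 at 0.0547, Ano6 at 0.0163 and Plscr3 at 0.0095. In the 4 libraries with placental transcripts alone, Tmem30a was at 0.0253 and Ano8 at -0.18. In the other 2 libraries, values without a test were 0.305 for Atp8a1, 0.69 for Atp11a, 0.10 for Atp11b, 0.18 for Xkr8, 0.45 for Ano6, -0.12 for Plscr1, 0.11 for Plscr3 and 0.91 for Ano8. The cause was not tested. Leaving out 1 library at a time gave ranges of -0.43 to 0.0278 for Atp8a1, -0.35 to 0.22 for Atp11a, -0.34 to 0.12 for Atp11b, -0.20 to 0.17 for Tmem30a, -0.11 to 0.0267 for Xkr8, -0.27 to 0.21 for Ano6, -0.0217 to 0.0983 for Plscr1, -0.14 to 0.00491 for Plscr3 and -0.0229 to 0.36 for Ano8; the highest values of Atp8a1, Atp11a, Atp11b, Tmem30a and Ano6 came without AC replicate 1. Other pseudocounts and filters turned no member. Same-numbered libraries did not all deviate together (correlations of deviations -0.06, 0.01 and 0.17 for replicates 1 to 3), although both replicates 3 lack placental transcripts. Pairs with different numbers ran from -0.338 to 0.335. A block for the number left 0 of 8 members and 0 of all genes past the threshold. With 3 libraries per group the median SE of the members was 0.21, and differences inside the intervals given are not excluded.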
